A study of Oryctolagus cuniculus with 8 samples.

Results

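Enzymes that clear drugs, toxins and endogenous lipids were followed across cultured rabbit cells on 1-colour expression arrays. Members were all probes whose RefSeq transcript carried a rabbit symbol beginning with CYP, UGT, SULT, GST or CES, together with the probes of AOX1 and AHR. The rule gave 36 probes for 14 genes, out of 43603 probes on the array. Only 1933 of those probes, for 680 genes, carried a gene name, so the 14 genes are the named share of these families and not the whole of them. The 41571 unnamed probes may hold further family members, which were not analysed here.

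The clearance of foreign compounds is usually described in phases. Phase I enzymes, mainly the cytochrome P450s (CYP), aldehyde oxidase and the carboxylesterases (CES), oxidise or hydrolyse a substrate, and phase II enzymes then attach glucuronic acid (UGT), sulfate (SULT) or glutathione (GST) to make it soluble. The aryl hydrocarbon receptor, AHR, is a ligand-activated transcription factor that binds dioxins and other planar aromatic compounds and induces several of these enzymes together with its partner ARNT. In adult animals most of these enzymes are abundant in liver, and a smaller set is found in the gut, lung and kidney.

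All 8 arrays held total RNA from cultured cells of Dutch rabbits. There were 2 embryonic stem (ES) cell lines, rdES4 (replicate 1) and rdES2-1 (replicate 2). A single induced pluripotent stem (iPS) line made from liver cells was hybridised at passages 7 and 23, and a single line made from stomach cells at passages 6 and 22. The somatic samples were 1 culture labelled liver cells and 1 labelled stomach cells. The pluripotent cells and the somatic cells grew in different media, so medium and cell type cannot be told apart. The reprogramming factors, the age of the animals and the passage of the somatic cells are not given in the sources used here. Each iPS origin was 1 line, and no label says that samples came from separate animals, so p-values measure only the spread between these samples.

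A level is the log2 of a probe's processed signal minus the log2 of the array's 75th percentile signal. That percentile was 274 to 341 on the ES and iPS arrays and 164 and 155 on the liver and stomach cell arrays. The share of probes well above background was 62.4% to 64.7% on the ES and iPS arrays and 57.8% and 58.4% on the somatic arrays. The lowest level still well above background was between -5.54 and -5.36 on the ES and iPS arrays, but -4.53 and -4.65 on the liver and stomach cell arrays, so weak probes were harder to measure in the somatic cells. No spot was saturated.

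The somatic labels were set against cell type markers. Of 7 named hepatocyte markers, ALB and APOA1 did not rise well above background on any of the arrays, and the summed linear level of the list was 4.65 on the array labelled liver cells and 20.0 on the array labelled stomach cells, with 3.43 to 5.94 in ES and iPS cells. The sum in stomach cells was mostly RBP4, at a level of 1.89 in liver and 3.75 in stomach cells, and HP, at -2.53 and 2.16. APOE and HPX were also higher in stomach cells. Within that list TF ran the other way, at a level of -1.62 in liver cells and -2.83 in stomach cells. Of 4 named gastric epithelial markers, the summed level was 5.64 on the array labelled liver cells, 1.37 on the array labelled stomach cells and 0.141 to 0.201 in ES and iPS cells. The gastric sum was nearly all CTSE, at a level of 2.45 in liver cells and 0.32 in stomach cells. ATP4A was not well above background in liver cells (-4.66) and was in stomach cells (-4.40), and PGC was at -3.95 and -4.08. The hepatocyte sum thus went against the somatic labels mainly through RBP4 and HP, and the gastric sum did so through 1 gene. The directions between liver and stomach cells given here are those of the arrays as labelled. The 4 named fibroblast and mesenchyme markers summed to 198 and 106 in liver and stomach cells and to 1.88 to 3.14 in ES and iPS cells. The pluripotency markers POU5F1 and PODXL ran the other way, with 262 to 353 in ES and iPS cells, 5.14 in liver cells and 0.133 in stomach cells. The macrophage marker CD14 was at 1.11 and 0.524 in liver and stomach cells and at 0.0614 to 0.0972 in ES and iPS cells. The fibroblast, macrophage and pluripotency lists thus moved with the somatic groups in the iPS and ES comparisons described here, and their part in the results was not tested. In bulk RNA, fewer cells of a type and less RNA per cell cannot be told apart.

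Detection of the family was partial in every sample. Between 14 and 23 of the 36 member probes were well above background on an array. ES replicate 1 had 20 and ES replicate 2 had 19. The liver iPS line had 20 at passage 7 and 15 at passage 23. The stomach iPS line had 14 at both passages. The liver cells had 21 and the stomach cells 23. Counted by gene, 7 and 8 genes had a probe well above background in the ES lines, 9 and 7 in the liver iPS line, 6 and 6 in the stomach iPS line, and 9 in each somatic culture.

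**Figure D1:**
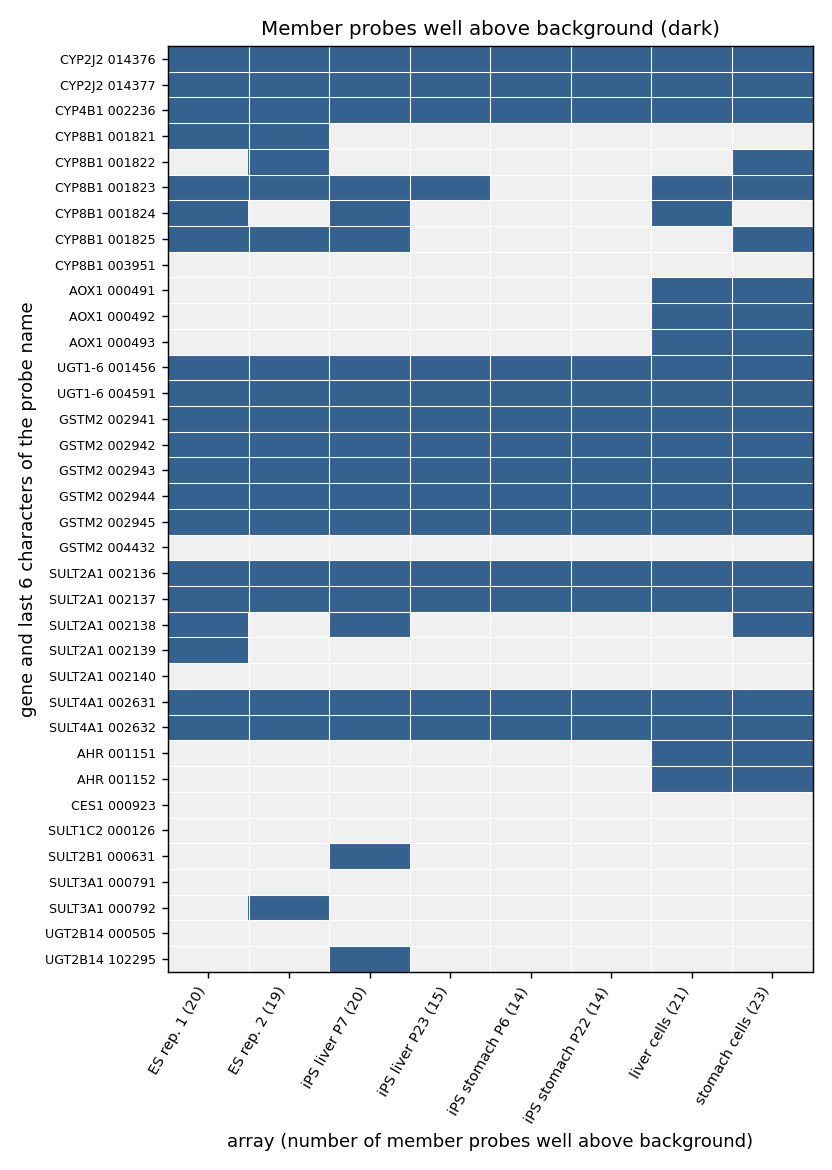
Detection of the 36 member probes (rows) on the 8 arrays (columns), with dark cells marking probes well above background. Of these probes, 14 were dark on all 8 arrays and 7 on none; AOX1 and AHR were dark on the 2 somatic arrays alone.

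A probe was tested when it was well above background on both arrays of at least 1 group. That left 22 member probes for 9 genes, of 28853 tested probes and 511 tested named genes. Of the 9 genes, 6 had a representative probe (the probe with the highest mean level) above background on all 8 arrays, namely CYP2J2, CYP4B1, UGT1-6, GSTM2, SULT2A1 and SULT4A1. AHR and AOX1 passed through the somatic arrays alone, so a difference was built into their selection. CYP8B1 passed near the detection limit.

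The 5 untested genes were at or under the limit of the assay. The carboxylesterase CES1, known for hydrolysing esters and amides in liver, was well above background on 0 arrays, and so was the sulfotransferase SULT1C2. The cholesterol sulfotransferase SULT2B1 was well above background only in the liver iPS line at passage 7, at a level of -5.33. The glucuronosyltransferase UGT2B14 was well above background on that same array alone, at -5.30. SULT3A1 was well above background only in ES replicate 2, at -4.92. No group difference can be read for these 5 genes.

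The comparison of iPS with somatic cells asks how the enzymes differ between reprogrammed cells and the kinds of cells they came from. Of the 9 tested genes, 8 were lower in iPS cells and 0 were higher (limma, adjusted p at or below 0.05), and 20 of 22 member probes were lower. The background was high, since 66.6% of all tested probes and 67.9% of tested named genes were called in this comparison, with 34.2% of probes called higher, 32.4% of probes called lower and 45.8% of named genes called lower. The median difference was -2.47 over the 9 genes, -0.62 over named genes and 0.02 over all probes. The 8 include AHR and AOX1, whose difference was built into their selection. Among the 6 genes measured on all 8 arrays, 5 were lower, and SULT2A1 did not pass the test.

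The ES lines gave a like count against the same somatic cells. Of the 9 genes, 7 were lower in ES cells and 0 were higher, against 64% of tested probes and 64% of named genes called in either direction. Called higher were 34.4% of probes, and called lower were 29.6% of probes and 42.7% of named genes. The 7 include AHR and AOX1, and among the 6 genes measured on all 8 arrays 5 were lower. At the probe level 17 of 22 were lower. The median difference was -2.19 over the 9 genes, -0.44 over named genes and 0.07 over all probes. Both comparisons use the same 2 somatic arrays, so they are not independent of each other. For 8 of the 9 representative probes, both somatic levels lay above all 6 ES and iPS levels. The 8 include AHR and AOX1, admitted through the somatic arrays alone, and CYP8B1 by a gap of only 0.0073. The share of all tested probes without overlap was not counted, so this count is no result about the members.

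**Figure D2:**
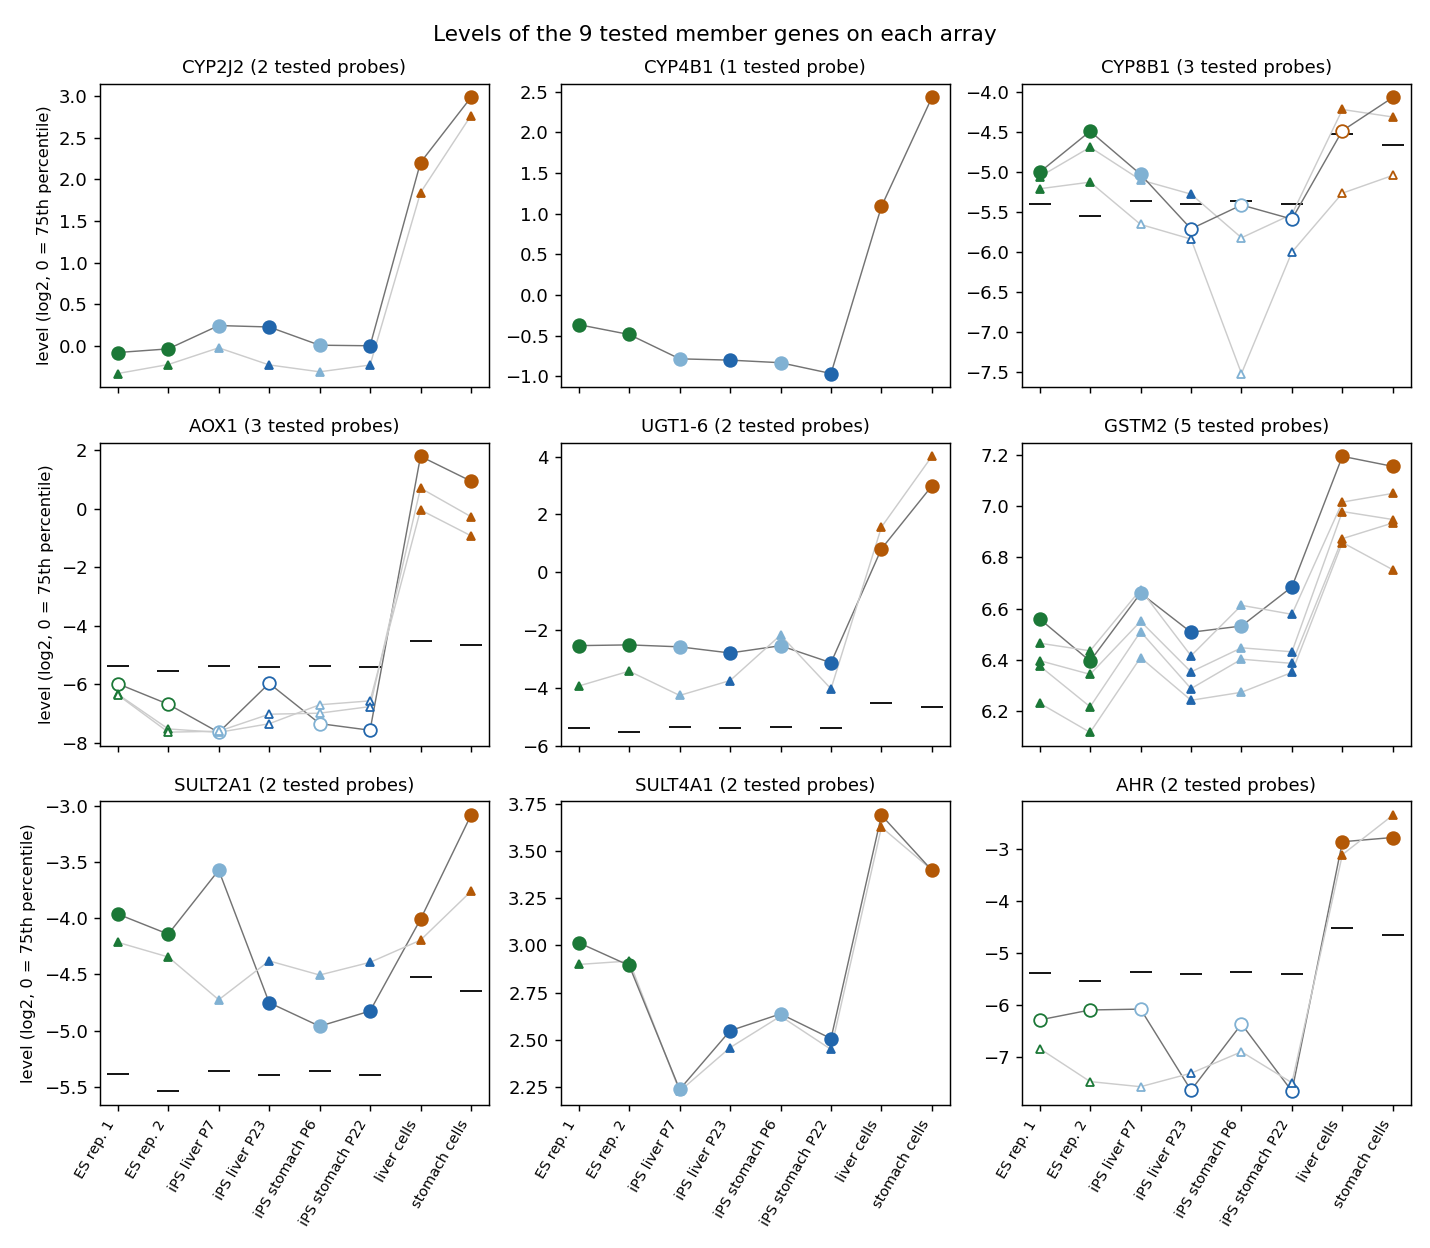
Level of the 9 tested genes on each of the 8 arrays (log2 of signal over the 75th percentile of the array); circles are the representative probe, triangles other tested probes, hollow marks not well above background, and black dashes the lowest level well above background on that array. UGT1-6, CYP4B1 and CYP2J2 were higher on both somatic arrays than on any of the 6 ES and iPS arrays, and AHR and AOX1 were well above background on the somatic arrays alone.

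CYP2J2, an epoxygenase of arachidonic acid that also oxidises drugs, was the only drug-type CYP named on the array. Its level was -0.08 and -0.04 in the ES lines, 0.24 and 0.23 in the liver iPS line at passages 7 and 23, and 0.01 and 0.00 in the stomach iPS line at passages 6 and 22. It was 2.20 in liver cells and 2.98 in stomach cells. Both somatic cultures were above all 6 ES and iPS arrays, which lay close together. The difference was -2.47 ± 0.28 (SE) for iPS against somatic cells, 5.55-fold lower (limma, adjusted p = 0.00135), and -2.65 ± 0.28 for ES against somatic cells, 6.28-fold lower (adjusted p = 0.0011). The other CYP2J2 probe gave -2.50 and -2.58. On single slides the gap was similar, at -2.28 for ES replicate 1 against liver cells and -3.02 for ES replicate 2 against stomach cells.

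CYP4B1, a fatty acid hydroxylase known in rabbit lung for activating furan toxins, had 1 probe. It was at -0.37 and -0.49 in the ES lines, -0.79 and -0.80 in the liver iPS line, and -0.83 and -0.97 in the stomach iPS line. It was 1.09 in liver cells and 2.43 in stomach cells. The 4 iPS arrays all lay below the 2 ES arrays, and the somatic arrays lay above both. The difference was -2.61 ± 0.44 for iPS against somatic cells, 6.09-fold lower (limma, adjusted p = 0.00493), and -2.19 ± 0.44 for ES against somatic cells, 4.55-fold lower (adjusted p = 0.00929). Without the stomach cells the iPS difference was -1.94, and without the liver cells it was -3.28. The call of iPS against somatic cells was lost with slide as a block (adjusted p = 0.0654), and that of ES against somatic cells was lost without ES replicate 2 (adjusted p = 0.0524).

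CYP8B1, the sterol hydroxylase that commits bile acid synthesis to cholic acid, was near the detection limit. The representative probe was at -5.00 and -4.49 in the ES lines, -5.03 and -5.71 in the liver iPS line, -5.41 and -5.59 in the stomach iPS line, -4.48 in liver cells and -4.06 in stomach cells. Of these 8 values, 4 were well above background: both ES lines, the liver iPS line at passage 7 and the stomach cells. On this probe the somatic values lay above the others by only 0.0073. Another tested probe, well above background on 6 arrays, had a gap of 0.38. It gave -1.17 in iPS cells (limma, adjusted p = 0.00801) and -0.61 in ES cells (0.0653). A further tested probe was well above background on the ES arrays alone, overlapped between the groups and gave -0.01 in ES cells. For the representative probe the iPS difference was -1.16 ± 0.24 (limma, adjusted p = 0.0100). Its ES difference of -0.47 did not pass (adjusted p = 0.144). The iPS call was lost without scaling of the arrays (difference -0.15) and with slide as a block (adjusted p = 0.0739). The raised detection limit of the somatic arrays moves with this result, and its part was not tested.

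AOX1, the molybdenum and flavin oxidase that oxidises aldehydes and nitrogen heterocycles, lay far apart between the somatic and the pluripotent cells. Its representative probe was at 1.78 in liver cells and 0.94 in stomach cells. On the 6 ES and iPS arrays it lay between -7.64 and -5.97 and was not well above background on any of them. With the main processing AOX1 was therefore at least 107-fold lower in iPS than in somatic cells and at least 113-fold lower in ES cells. Under the alternatives in processing the log2 difference was as small as -3.60 in iPS and -3.46 in ES cells, less than these bounds. No p-value is given for AOX1, since it entered the test through the group where it is high. These bounds set the somatic mean against the mean of the lowest signal well above background on each dim array. The other 2 probes gave bounds of 29.7-fold and 48.2-fold for iPS cells, and 31.5-fold and 51.1-fold for ES cells.

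UGT1-6, a phase II glucuronosyltransferase of the UGT1 locus that conjugates small planar phenols, had 2 tested probes. The UGT1 locus makes several enzymes from alternative first exons joined to shared later exons, so whether these probes separate its transcripts cannot be told here. The representative probe was at -2.54 and -2.51 in the ES lines, -2.58 and -2.79 in the liver iPS line, -2.54 and -3.13 in the stomach iPS line, 0.81 in liver cells and 2.98 in stomach cells. Both somatic values exceeded every ES and iPS value by at least 3.32. The iPS difference was -4.66 ± 0.70, 25.2-fold lower (limma, adjusted p = 0.00325), and the ES difference was -4.42 ± 0.70, 21.4-fold lower (adjusted p = 0.00399).

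The second UGT1-6 probe was more variable within the pluripotent cells. It was at -3.94 and -3.42 in the ES lines, -4.26 and -3.75 in the liver iPS line, -2.18 and -4.03 in the stomach iPS line, 1.56 in liver cells and 4.01 in stomach cells. The stomach iPS line at passage 6 stood above the other ES and iPS arrays, and both somatic cultures stood above it. The probe gave 80.9-fold lower in iPS cells (difference -6.34 ± 0.84, limma, adjusted p = 0.00223) and 88.3-fold lower in ES cells (difference -6.46). The 2 probes thus differed in size and not in direction. Without the stomach cells the iPS difference of the representative probe was -3.57, and without the liver cells it was -5.75.

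GSTM2, a mu-class glutathione transferase, was well above background on all 8 arrays, with small differences. It was at 6.56 and 6.39 in the ES lines, 6.66 and 6.51 in the liver iPS line, 6.53 and 6.68 in the stomach iPS line, 7.19 in liver cells and 7.15 in stomach cells. The somatic cultures lay above the rest by 0.47. The iPS difference was -0.58 ± 0.13, 1.49-fold lower (limma, adjusted p = 0.0129), and the ES difference was -0.70 ± 0.13, 1.62-fold lower (adjusted p = 0.0071). The 5 tested GSTM2 probes gave iPS differences of -0.58 to -0.46, and a sixth probe did not rise well above background on any of the arrays. The direction depended on the scaling: with unscaled arrays, where the median probe was 1.03 higher in iPS cells, the GSTM2 difference was 0.43, and with quantile normalization it was -0.19 (adjusted p = 0.251).

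SULT4A1, a sulfotransferase best known from brain, was lower in both pluripotent groups. Its level was 3.01 and 2.89 in the ES lines, 2.24 and 2.55 in the liver iPS line, 2.64 and 2.51 in the stomach iPS line, 3.69 in liver cells and 3.40 in stomach cells. Somatic values were highest, ES values intermediate and iPS values lowest, with no overlap between the 3 kinds of cell. The iPS difference was -1.06 ± 0.16, 2.08-fold lower (limma, adjusted p = 0.00369), and the ES difference was -0.59 ± 0.16 (adjusted p = 0.0273). With unscaled arrays these became -0.05 and 0.28, neither of which passed. The ES call was also lost without ES replicate 1 (adjusted p = 0.0735), without ES replicate 2 (0.116), without the liver cells (0.0773), with slide as a block (0.078) and in a fit of the ES and somatic samples alone (0.0556).

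SULT2A1, which sulfates bile acids and dehydroepiandrosterone, did not pass in either comparison. Its level was -3.96 and -4.14 in the ES lines, -3.57 and -4.75 in the liver iPS line, -4.96 and -4.83 in the stomach iPS line, -4.01 in liver cells and -3.08 in stomach cells. On this representative probe the liver cells lay within the range of the ES and iPS arrays. On the other tested probe both somatic levels lay above all ES and iPS levels, by only 0.019. Its differences of -0.52 in iPS and -0.30 in ES cells did not pass either (limma, adjusted p = 0.0568 and 0.213). For the representative probe the iPS difference was -0.98, with a 95% interval of -1.99 to 0.03 (limma, adjusted p = 0.0769). Its ES difference was -0.51, with an interval of -1.52 to 0.50 (adjusted p = 0.305). Without the liver iPS array at passage 7 the iPS difference was -1.28 (adjusted p = 0.0201), and without the liver cells it was -1.45 (adjusted p = 0.0237).

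AHR, the regulator among the members, was detected in the somatic cells alone. Its representative probe was at -2.86 in liver cells and -2.78 in stomach cells. On the 6 ES and iPS arrays it lay between -7.66 and -6.08 and was not well above background. In iPS cells AHR was lower by a factor of at least 5.89 and in ES cells by a factor of at least 6.25, again with no p-value because the somatic arrays alone admitted it to the test. The other AHR probe gave bounds of 6.27-fold and 6.66-fold. All these bounds hold for the main processing. Under the alternatives the log2 difference of AHR was as small as -1.22 in iPS and -1.10 in ES cells, less than these bounds.

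**Figure D3:**
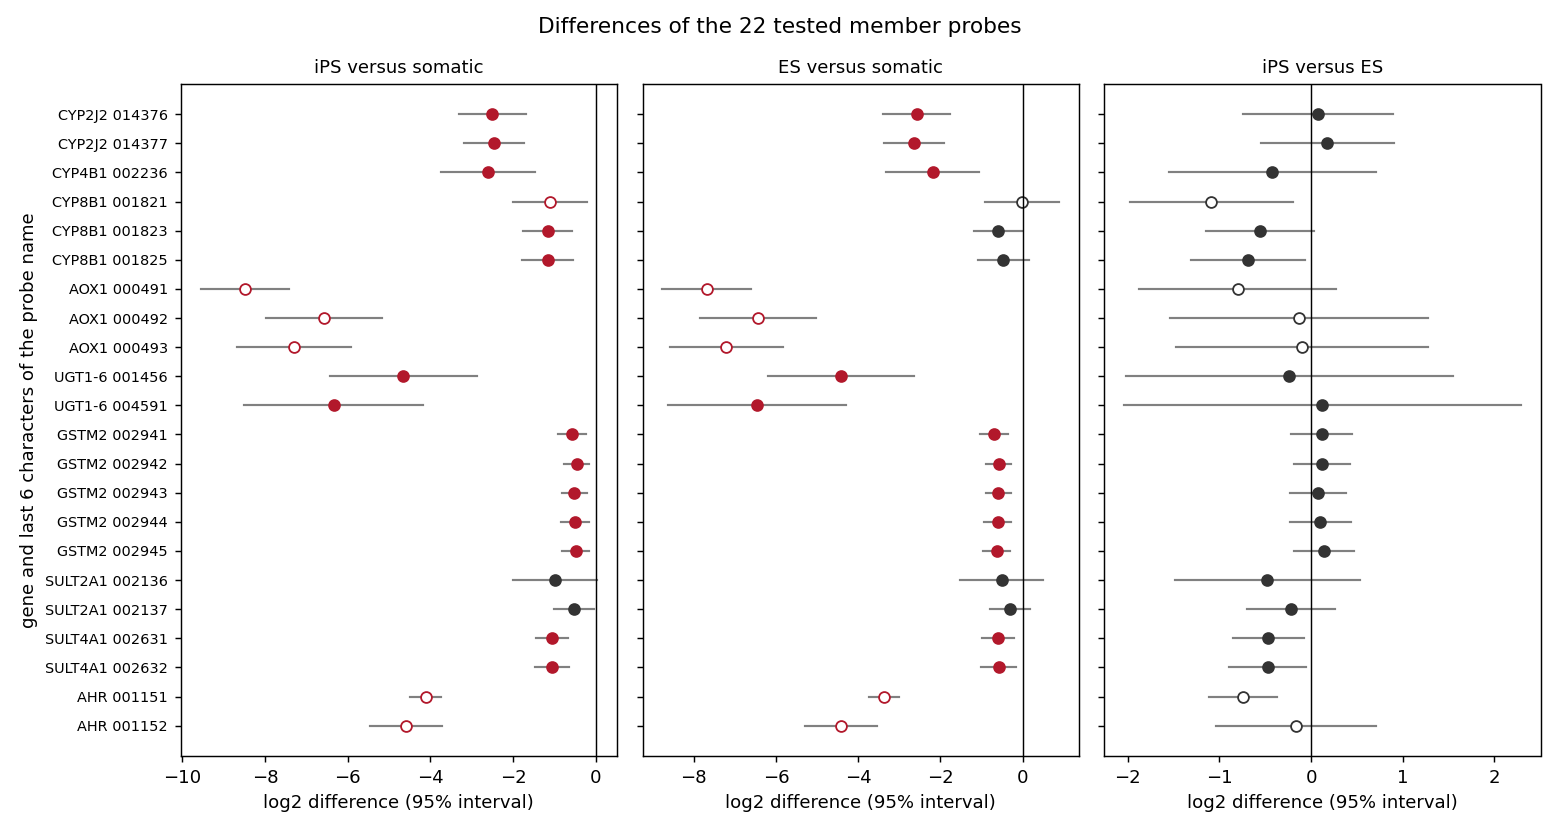
Differences (log2) of the 22 tested member probes between iPS and somatic, between ES and somatic, and between iPS and ES cells, with 95% intervals from limma; red marks an adjusted p at or below 0.05, hollow marks a group that was not well above background on any of its arrays, and the horizontal ranges differ between panels. In the somatic comparisons 20 and 17 probes were red and all of those lay below 0, whereas none was red for iPS against ES; the small GSTM2 differences and the SULT4A1 difference in ES cells turn positive with unscaled arrays.

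The wider pathway was read from 65 partner genes, of which 23 were named on the array and 19 tested. In iPS against somatic cells 11 were lower, 3 were higher and 5 did not pass, with a median difference of -0.84. The share called was 73.7%, near the 67.9% called over all named genes, and is no result about the partners. The counts were the same for ES cells, with a median of -0.79. The AHR partner ARNT was lower in iPS cells, with a difference of -0.78 ± 0.14 (limma, adjusted p = 0.00575). The bile acid receptor NR1H4, also called FXR, was well above background in the somatic cells alone, which admitted it to the test, and its signal in iPS cells was lower by a factor of at least 16.7. That bound was 49.8-fold without the stomach cells and 5.60-fold without the liver cells. With the normexp background correction described below, the log2 difference of NR1H4 was -2.07, less than the main bound. NR1I2, the xenobiotic receptor PXR, was not tested.

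Enzymes that supply or accompany the members also differed. POR, which passes electrons to the microsomal CYPs, had an iPS difference of -0.85 ± 0.16 (limma, adjusted p = 0.00778). PAPSS1 and PAPSS2 make the sulfate donor that SULT enzymes use. Their iPS differences were -1.05 ± 0.17 and -3.43 ± 0.30 (adjusted p = 0.0046 and 0.000591). The efflux pump ABCB1 had a difference of -3.17 ± 0.62 (adjusted p = 0.00796), with -2.35 without the stomach cells and -3.98 without the liver cells. The lactonase PON3 had a difference of -3.64 ± 0.36 (adjusted p = 0.000861). HMOX2, a haem oxygenase, and FMO5, a flavin monooxygenase, were lower as well, with differences of -1.53 and -1.30. The retinal dehydrogenase ALDH1A1, likewise admitted through the somatic arrays alone, was lower in iPS cells by a factor of at least 7.05. Its level was -0.91 in liver cells and -4.21 in stomach cells, and the bound was 22.1-fold without the stomach cells and 2.24-fold without the liver cells. With normexp correction the log2 difference of ALDH1A1 was -1.53, less than the main bound.

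The partners that were higher in iPS cells included TPMT, a thiopurine methyltransferase, and CBR1, a carbonyl reductase. TPMT had a difference of 0.48 ± 0.16 (limma, adjusted p = 0.0431) and CBR1 of 0.76 ± 0.22 (adjusted p = 0.0294). Directions of the smaller differences also depended on the scaling: with unscaled arrays ARNT and POR turned to 0.23 and 0.16 in iPS cells, and neither value passed the test. With unscaled arrays PAPSS1 (-0.04), HMOX2 (-0.52) and FMO5 (-0.29) kept their sign but did not pass either. TPMT (0.10) did not pass with normexp correction. The unscaled count was 5 partners lower and 6 higher. Most calls over all tested probes were also higher without scaling, as given below, so this count is no result about the partners. EPHX1, ADH5, AKR1B1, FMO1 and FMO2 did not pass, with iPS differences of -0.26, 0.11, 0.88, 0.10 and -0.84. The FMO1 value averages unlike somatic arrays, at -1.95 in liver cells and -6.84, not well above background, in stomach cells. Its iPS difference was -2.34 without the stomach cells and 2.55 without the liver cells. With normexp correction ADH5 (0.355), AKR1B1 (1.05), FMO1 (-0.76) and FMO2 (-0.82) passed in iPS cells.

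The comparison of iPS with ES cells asks whether the reprogrammed lines match embryonic lines in these enzymes. Of the 9 member genes, 0 were called (limma), as were 0% of all tested probes. Before adjustment 3 had a limma p below 0.05, and the share of all tested probes at that threshold was not counted. Of those 3, AHR was dim in both groups and has no level to compare. CYP8B1 entered the test through the ES arrays and was well above background on 1 of 4 iPS arrays, so its difference was not read. SULT4A1 had a difference of -0.47, with an interval of -0.89 to -0.05 and an adjusted p of 0.632. The 95% intervals of the other genes measured on all 8 arrays were -0.55 to 0.90 for CYP2J2, -1.55 to 0.71 for CYP4B1, -0.21 to 0.45 for GSTM2, -1.48 to 0.53 for SULT2A1 and -2.02 to 1.55 for UGT1-6. The interval was narrowest for GSTM2 and widest for UGT1-6 among these 6 genes.

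Passage was compared between the early (passages 6 and 7) and late (passages 22 and 23) arrays of the same 2 iPS lines. Again 0 of 9 member genes were called (limma), against 0.0277% of all tested probes (0.00693% higher and 0.0208% lower). Before adjustment 1 had a limma p below 0.05, with the share of all tested probes again not counted. That gene was AHR, which was not well above background on any iPS array, so its direction was not read. Late minus early differences of the genes measured on all 8 arrays were -0.01 for CYP2J2, -0.07 for CYP4B1, 0.00 for GSTM2, -0.52 for SULT2A1, 0.09 for SULT4A1 and -0.40 for UGT1-6. These are the representative probes, and the other tested SULT2A1 probe had the opposite sign, at 0.23. CYP8B1 was not well above background on either late array and has no exact difference. The 95% intervals of the representative probes ran from -0.66 to 0.64 for CYP2J2 and from -0.33 to 0.33 for GSTM2. The interval was wider for UGT1-6, at -1.97 to 1.17.

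Liver and stomach cells had 1 array each, so their difference has no replicate check. The arrays were on different slides, so slide and tissue cannot be told apart. The hepatocyte sum did not follow these labels, though TF did. UGT1-6 was lower in liver than in stomach cells by both probes, with differences of -2.17 and -2.45. Differences at least that large were found for 2.46% and 1.83% of all tested probes. CYP4B1 differed by -1.34, a size reached by 6.35% of tested probes, and CYP2J2 by -0.78 and -0.93. AOX1 was higher in liver cells by 0.85, 0.88 and 0.98 over its 3 probes. GSTM2 differed by -0.06 to 0.11 over 5 probes and SULT4A1 by 0.23 and 0.29. For comparison, the SD of the difference over all tested probes was 0.759 between these cultures and 0.489 between the 2 ES lines.

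**Figure D4:**
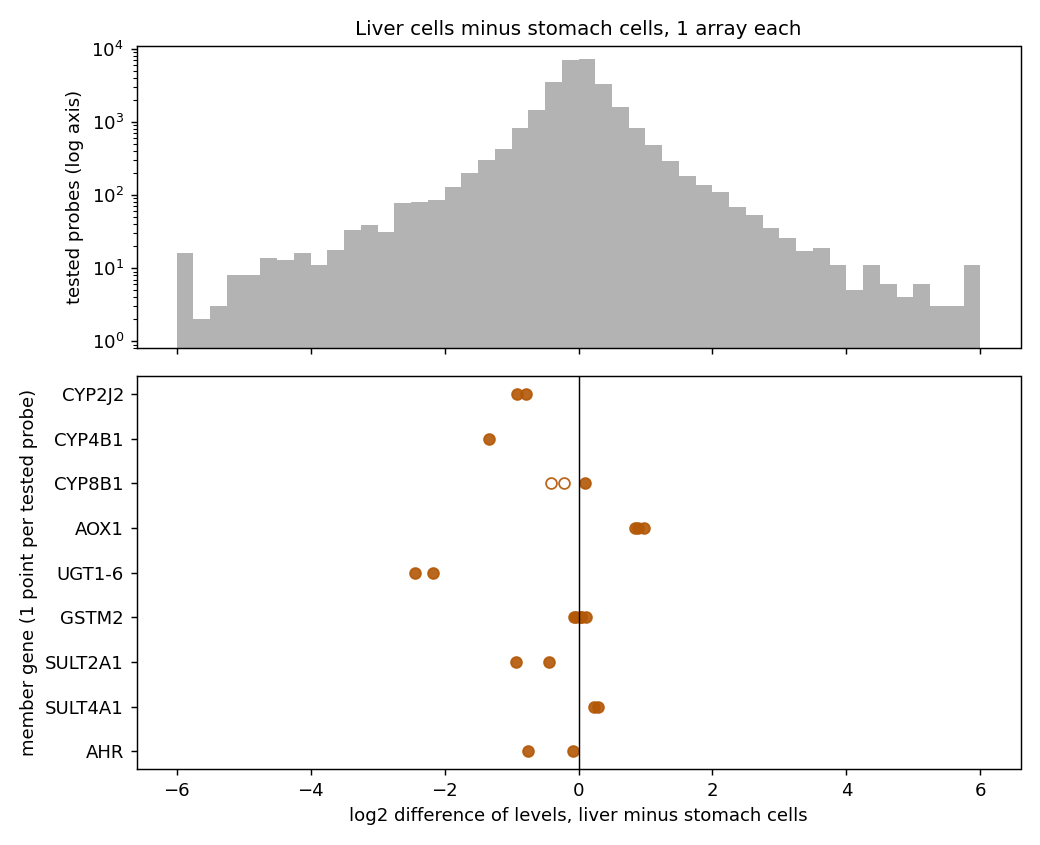
Difference between the liver cell and stomach cell arrays (log2) for all 28853 tested probes (upper panel, histogram with a log count axis and values beyond 6 pooled in the end bins) and for the member probes (lower panel, hollow where not well above background on both arrays). The 2 UGT1-6 probes lay at -2.17 and -2.45 and the 3 AOX1 probes between 0.85 and 0.98, with 1 array per tissue, on different slides, and no test.

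Each iPS line was also set against the cells of its origin as labelled, with 1 array on each side. For the representative UGT1-6 probe the liver line differed from liver cells by -3.39 at passage 7 and -3.60 at passage 23. The stomach line differed from stomach cells by -5.53 at passage 6 and -6.11 at passage 22. For CYP4B1 the liver line differed by -1.88 and -1.89 and the stomach line by -3.27 and -3.40. For CYP2J2 the values were -1.96 and -1.97 in the liver line and -2.98 at both passages in the stomach line. In these 3 genes, which were higher in stomach than in liver cells, the larger gap was in the stomach line. SULT4A1, which was higher in liver than in stomach cells, had its larger gap in the liver line. Its values were -1.45 and -1.14 in the liver line and -0.76 and -0.89 in the stomach line. GSTM2 showed no order, with -0.53 and -0.69 in the liver line and -0.62 and -0.47 in the stomach line. The same somatic arrays give these gaps and the difference between liver and stomach cells. The order of the gaps is therefore largely that difference again and no separate result about the lines. The liver iPS and liver cell arrays shared 1 slide, and the stomach iPS arrays were on a slide with no other group.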

How the data were processed

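Signals were read from the 8 deposited scanner files, made with Agilent Feature Extraction 10.5.1.1 per the file headers, which gives background-subtracted, detrended Cy3 intensity per spot. Control spots and outlier-marked spots were dropped (19 probes had none left on an array), spots of a probe averaged, and log2 intensity minus each array's log2 75th percentile taken. The authors' deposited log2 value table served as an alternative. Set against these levels centred on each probe's median, its columns had slopes of 0.9999 to 1.0001 and median differences of -0.0011 to 0.0026, which fits the same log2 scale, median centring and direction. Its column medians were -0.042 to 0.014 on ES and iPS arrays and 0.336 and 0.342 on liver and stomach cell arrays. Symbols came from the RefSeq table of assembly mOryCun1.1, through unversioned transcript accessions.

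Probes well above background on both arrays of a group were tested with limma 3.58.1 (R 4.3.3), with Benjamini-Hochberg adjustment over 28853 probes and a threshold of 0.05. ES, iPS line means (early and late averaged) and somatic samples made 6 units in 3 groups. Late versus early used all 8 arrays. The same line links its early and late arrays, and their deviations correlated at 0.22. A gene was represented by its brightest probe. Called members are described by array and other tested members by difference. The members and lists were chosen with earlier results of these data known. The procedure was tested on simulated data, where the ES against somatic fit made a larger share of false calls than the threshold. Averaged iPS arrays can narrow the shared spread, so a fit of the ES and somatic samples alone is given beside it (6 of 9 genes called). The share of all tested probes called in that fit is not given here, so this count is no result about the members. Normexp correction used the files' median signals in place of mean signals. Alternatives also covered scaling, filtering, probe choice, slide, line or origin as a block, the groups in the fit and leaving out each array. Some partner genes are counted but not reported by name here.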

Additional observations from a re-analysis of the deposited data

Results flagged for a closer look

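The change with passage of 1 UGT1-6 probe went opposite ways in the iPS lines. Late minus early was 0.51 in the liver line and -1.86 in the stomach line, so the stomach line's change minus the liver line's was -2.37 on the log2 scale. A change of at least that size was seen for 1.67% of tested probes in the stomach line. The other UGT1-6 probe gave -0.21 and -0.59, the same direction in both lines. Of 14 member probes well above background on all 4 iPS arrays, 7 had opposite signs in the lines. The flagged probe was the only one of these with a size of at least 0.5 in each. The share of all probes with opposite signs was not counted, so the count of 7 is no result about the members. The probe was flagged by this same difference. Each line had 1 array per passage, and the difference was not tested.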

How the results depend on the processing

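CYP2J2 and UGT1-6 stayed lower and past the threshold in both somatic comparisons under all 17 alternatives run for each. AHR and AOX1 did too, but that says nothing about stability, since the filter admitted them through the somatic arrays alone. For iPS against somatic cells, 8 of 9 member genes were called; without scaling and with slide as a block 5 were, and under the other alternatives 7 to 9 (8 to 9 with arrays left out in turn). The slide with the stomach iPS arrays holds no other group, so the blocked iPS value rests on the liver line. For ES against somatic cells 7 were called, and 5 to 9 under the alternatives (5 to 7 with arrays left out). Between iPS and ES cells and between passages 0 were called under every alternative run. With tissue of origin as a replicate block, 7 genes were called in iPS against somatic cells and GSTM2 was lost (adjusted p = 0.0568); same-origin deviations correlated at only 0.02 and 0.01, and no label says that they share an animal. With the line as a replicate block 0 genes were called between passages. Shares of all tested probes called are not given for these alternatives, so the counts of genes are no result about the members.

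Without scaling, where the median probe rose by 1.03 in iPS and 0.94 in ES cells against somatic cells, signs turned for GSTM2 (0.43) and SULT2A1 (0.027) in iPS cells, and for CYP8B1 (0.40), GSTM2 (0.18), SULT2A1 (0.37) and SULT4A1 (0.28) in ES cells; 82.5% of iPS calls were then higher, against 51.4%, and 33.3% with normexp, 38.8% with no filter. The ES share went from 53.7% to 81.5% unscaled, 34.1% with normexp and 40.1% with no filter. Normexp added SULT2A1 (adjusted p = 0.000802) in iPS cells, and CYP8B1 (0.00176) and SULT2A1 (0.00238) in ES cells. The median of all probes added SULT2A1 in iPS cells (0.0199). Slide as a block lost GSTM2 in both (0.125 and 0.0538) and SULT4A1 in ES cells (0.078), which a fit of ES and somatic samples alone lost too (0.0556), and called 9924 probes in iPS against somatic cells in place of 19220.

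Among uncalled differences, late minus early GSTM2 (0.00) became -0.018 unscaled, -0.033 with normexp, -0.11 with the median of all probes and -0.001 with the authors' table, and CYP8B1 became 0.15 with the median of all probes. With slide as a block, iPS minus ES became 0.08 for SULT2A1 and 0.39 for UGT1-6. Raising dim arrays to the lowest signal well above background, chosen after seeing the data, turned AHR and AOX1 to 0.087 in iPS minus ES and AOX1 to -0.035 in late minus early; neither gene was well above background on any ES or iPS array, so these signs have no order. With arrays left out in turn, late minus early ran from -0.13 to 0.11 for CYP2J2, -0.16 to 0.0078 for CYP4B1, -0.088 to 0.089 for GSTM2, -1.22 to 0.17 for SULT2A1, -0.11 to 0.29 for SULT4A1 and, with no order, -0.077 to 1.52 for AOX1. The cause of these changes was not tested. The number of arrays limits the precision, and signal over background limits what can be said of CYP8B1, SULT2A1, AOX1 and AHR.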
